A study of Mus musculus with 12 samples.

Results

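The 10 circadian clock genes Per1, Per2, Per3, Cry1, Cry2, Arntl, Clock, Nr1d1, Nr1d2 and Dbp were read out of hippocampal RNA-Seq of 12 mice, as 10 of 18434 genes tested and as 35 tested isoforms of 59852. The members were fixed by name. Their transcripts were taken from GENCODE annotation of the mouse genome GRCm38 and summed per gene, which used 44 of the 115270 deposited transcripts, and 42 of the 44 were above 0 in some library. The mice were male C57BL/6 mice of postnatal day 70, with 3 each in a control group, an ethanol group whose dams could drink 10% ethanol in water through gestation and, by the study's methods, before mating and into the days of maternal separation, a stress group whose pups spent 3 h of each day alone, away from the dam and the litter, over postnatal days 2 to 14, and an ethanol + stress group with both treatments. Ethanol intake was voluntary, so the dose that reached each fetus is not known from the labels. All groups shared the strain, sex and age, and the light phase and hour at which tissue was taken are not given in the sources used here.

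The circadian clock is a loop of transcription that runs in nearly every cell. CLOCK, or its relative NPAS2, pairs with BMAL1, the product of Arntl, binds E-box DNA and switches on the Per and Cry genes, whose proteins return to the nucleus and block that pair. The same pair switches on Nr1d1 and Nr1d2, which encode the repressors REV-ERB alpha and beta that act on Arntl, and Dbp, which encodes a factor that binds D-box DNA. In the hippocampus this clock takes part in the daily course of memory formation. Dbp RNA swings widely over the day in many tissues and Arntl RNA runs opposite to it, so these genes are commonly read together as a marker of phase.

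The letters bound by these factors were looked for in RefSeq promoter windows of GRCm38, which run from 250 bases before to 50 bases after a gene's start. Of the members, 9 had a window, 13 windows in all, and Per2 had none. The E-box CACGTG was in windows of 2 members, Per1 and Cry1, and in 7.15% of all 32851 windows. The E-box-like CACGTT was found for Cry1, Cry2 and Nr1d1 (4.68% of all windows), the D-box TTATGNAA for Per1 and Per3 (3.38%), and TAGGTCA, part of the element that REV-ERB proteins bind, for Arntl (2.61%). The cyclic AMP response element TGACGTCA was in no member window and in 1.79% of all. Both strands were searched, and no 2 of the motifs share the same letters at one place here. The stretches that hold the most matches are shown because they carry the letters by which the loop acts on its own genes, each 5′ to 3′ on the gene's strand with matches in capitals, a match on the other strand reading as its complement. They cover chr11:69098769-69098938 (plus strand) for Per1, chr4:151044806-151044885 (minus strand) for Per3 and chr10:85185085-85185134 (minus strand) for Cry1.
Per1: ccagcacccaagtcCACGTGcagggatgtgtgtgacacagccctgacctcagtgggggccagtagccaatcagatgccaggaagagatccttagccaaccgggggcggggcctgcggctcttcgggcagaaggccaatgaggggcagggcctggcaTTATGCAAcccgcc
Per3: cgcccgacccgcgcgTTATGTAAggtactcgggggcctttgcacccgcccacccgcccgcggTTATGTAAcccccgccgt
Cry1: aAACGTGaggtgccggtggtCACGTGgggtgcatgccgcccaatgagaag
The E-box of Per1 began at position -166 and its D-box at -24 from the start, the pair of D-boxes of Per3 at -205 and -158, and the E-box of Cry1 at -60. A match of letters is a description of the reference sequence and was not tested for binding.

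Values are TPM, a measure of abundance corrected for transcript length that the authors had scaled between libraries, so that they sum to between 889222 and 1173650 per library. From the steps of low values each library was estimated to hold 12050000 to 14960000 read pairs. The 3 libraries with the largest sums, ethanol replicate 2 and ethanol + stress replicates 2 and 3, also had the most negative dependence of their values on transcript length, with slopes of -0.0777, -0.0545 and -0.0433 log2 units per log2 unit of length against -0.0128 to 0.0505 in the other 9. The 8 markers of hippocampal neurons were all tested, and their summed level was 339 to 414 TPM. The 7 choroid plexus markers ranged from 42.3 to 7255 TPM in sum, and the 5 blood markers from 1603 to 2022 TPM in control mice, where ethanol mice had 3146 to 6815, stress mice 2593 to 3392 and ethanol + stress mice 2454 to 6480. All 5 blood markers were higher in ethanol and in ethanol + stress mice at the threshold given next, and none in stress mice.

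Each treated group was compared with control in 1 limma model of all 12 libraries on log2(TPM + 0.5), a scale that understates changes of low values. A gene was called at an unadjusted p under 0.01, the threshold the study used for transcripts. Adjustment was by the method of Benjamini and Hochberg, over every gene or every transcript in the model. None of the 10 clock genes was called in ethanol, stress or ethanol + stress mice by limma, where 0.678%, 0.51% and 0.971% of all genes were called. At an unadjusted p under 0.05 the counts were 1, 0 and 1 of 10, beside 3.63%, 2.4% and 5.37% of all genes. The median difference of the 10 genes was 0.11 in ethanol mice, 0.02 in stress mice and 0.07 in ethanol + stress mice on the log2 scale, beside 0.02, 0.00 and 0.02 over all genes. None was called between ethanol + stress and stress mice, between ethanol + stress and ethanol mice, in the interaction of the treatments or in the F test over the 4 groups, where 0.705%, 0.667%, 0.461% and 0.721% of all genes were called by limma. At p under 0.05 the counts were 0, 1, 0 and 0 of 10, beside 4.1%, 3.36%, 2.69% and 3.51%. Standard errors of the differences from control ran from 0.10 for Cry2 to 0.22 for Dbp, and differences as large as 0.47 for Per1 were not called with 3 mice per group. In bulk tissue, fewer cells that express a gene and less RNA per cell cannot be told apart.

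**Figure D1:**
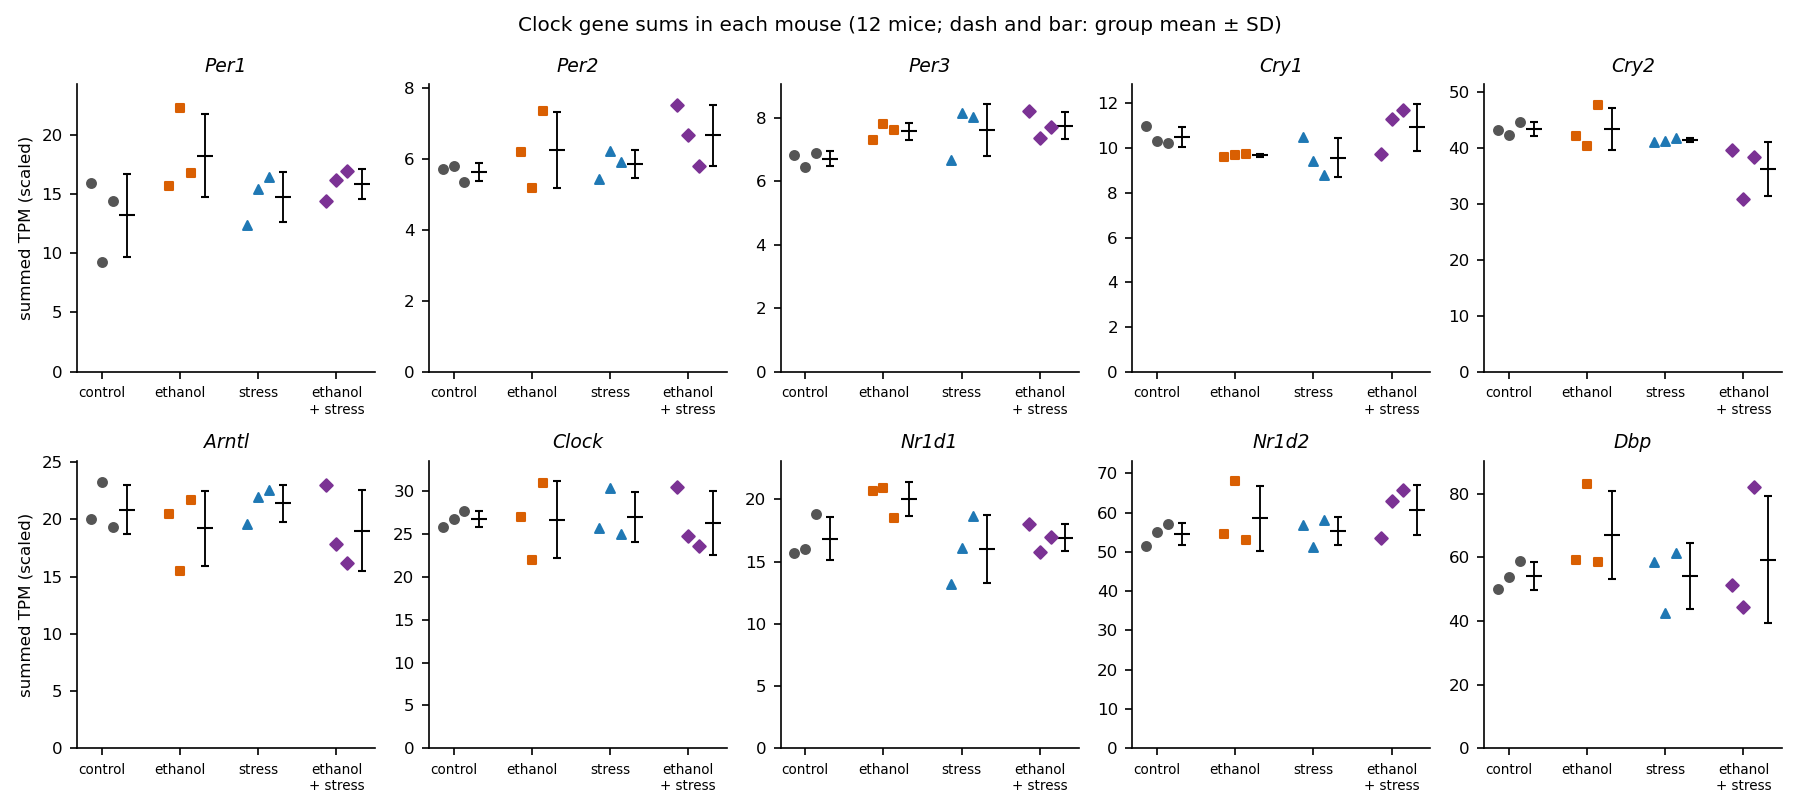
Summed TPM of the 10 clock genes in each of 12 mice, with the group mean and SD as a dash and bar, for control, ethanol, stress and ethanol + stress (3 mice each). Dbp reached 83.0 and 82.0 TPM in 1 ethanol and 1 ethanol + stress mouse and stayed at 61.5 or less in the other 10, and all 3 ethanol + stress values of Cry2 lay below its control values.

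Among the Per genes, which encode repressors of the loop, Per1 (ENSMUSG00000020893.17, chr11:69095217-69109960, plus strand) was at 15.9, 9.24 and 14.4 TPM in control replicates 1 to 3 and at 15.7, 22.2 and 16.8 in ethanol mice. It was at 12.4, 15.4 and 16.4 TPM in stress mice and at 14.4, 16.2 and 16.9 in ethanol + stress mice. The ranges of ethanol and control mice just overlapped, with control replicate 2 the lowest of all 12 and ethanol replicate 2 the highest. The mean was 13.2 ± 3.47 TPM (SD, n = 3) in control and 18.2 ± 3.47 in ethanol mice, a log2 difference of 0.47 ± 0.20 (SE) that was under 0.05 unadjusted but not called (limma adjusted p = 0.997). It was 0.246 without control replicate 2 and 0.327 without ethanol replicate 2, and was then not under 0.05 unadjusted. Per2 (ENSMUSG00000055866.9, chr1:91415982-91459324, minus strand) was at 5.74, 5.82 and 5.36 TPM in control, 6.22, 5.20 and 7.35 in ethanol, 5.43, 6.23 and 5.93 in stress mice and 7.53, 6.69 and 5.82 in ethanol + stress mice. Every treated group overlapped the control mice. Per3 (ENSMUSG00000028957.12, chr4:151003652-151044665, minus strand), a paralog that is not essential for rhythm, was at 6.81, 6.44 and 6.87 TPM in control, 7.28, 7.79 and 7.62 in ethanol, 6.68, 8.14 and 8.03 in stress mice and 8.20, 7.35 and 7.69 in ethanol + stress mice. All ethanol and all ethanol + stress values of Per3 lay above the 3 control values, by 0.16 ± 0.12 and 0.19 ± 0.12 on the log2 scale (limma adjusted p = 0.997 and adjusted p = 0.791). Without the isoform Per3-202, described below, both groups overlapped control. With protein-coding transcripts alone the differences were -0.007 and -0.044.

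The Cry genes encode the cryptochromes, repressors of the CLOCK and BMAL1 pair. Cry1 (ENSMUSG00000020038.10, chr10:85131700-85185064, minus strand) was at 11, 10.3 and 10.2 TPM in control, 9.61, 9.68 and 9.74 in ethanol, 10.5, 9.42 and 8.79 in stress mice and 9.75, 11.3 and 11.7 in ethanol + stress mice. The ethanol values all lay below the control values, by 0.11 ± 0.11 on the log2 scale (limma adjusted p = 0.997). In the main isoform Cry1-201, 97.5% of the sum, ethanol values (9.61, 9.68 and 9.74 TPM) overlapped control values (10.4, 9.21 and 10.2). The rest of the sum was Cry1-204, a retained intron worth 1.61 to 2.42 read pairs where above 0. Cry2 (ENSMUSG00000068742.11, chr2:92403646-92434043, minus strand) was at 43.2, 42.3 and 44.7 TPM in control, 42.1, 40.4 and 47.6 in ethanol, 41.1, 41.3 and 41.8 in stress mice and 39.7, 30.8 and 38.4 in ethanol + stress mice. Its ethanol + stress values lay below those of all other mice, and its stress values below those of control. In the main isoform Cry2-201, 93.5% of the sum, ethanol + stress values (37.9, 28.7 and 35.5 TPM) overlapped ethanol values (35.3, 37.5 and 45.3). Stress values of Cry2-201 (40.7, 38.7 and 38.0) overlapped control values (40.3, 40.2 and 43.2), and its ethanol + stress values stayed below control. The mean of summed Cry2 was 43.4 ± 1.20 TPM in control and 36.3 ± 4.82 in ethanol + stress mice, a log2 difference of -0.26 ± 0.10 (limma adjusted p = 0.791). Against ethanol mice the difference was -0.26 ± 0.10 as well (limma adjusted p = 1), and both were under 0.05 unadjusted but not called. Without ethanol + stress replicate 1 the difference of Cry2 from control was -0.332 and was called, as 1 of 10 genes. It was -0.151 without ethanol + stress replicate 2, the lowest mouse, and -0.128 without the 3 libraries with the largest sums, neither of which was called, and -0.398 with a common total, also not called. Groups did not overlap for 2 of 10 clock genes in ethanol mice, 1 in stress mice and 2 in ethanol + stress mice against control, beside 8.25%, 7.2% and 10.2% of all genes.

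Arntl and Clock encode the activators. Arntl (ENSMUSG00000055116.8, chr7:113207465-113314126, plus strand) was at 20.0, 23.3 and 19.3 TPM in control, 20.5, 15.5 and 21.7 in ethanol, 19.6, 22.0 and 22.6 in stress mice and 23.0, 17.9 and 16.2 in ethanol + stress mice. Clock (ENSMUSG00000029238.11, chr5:76209868-76304792, minus strand) was at 25.8, 26.8 and 27.7 TPM in control, 27.0, 22.0 and 31 in ethanol, 25.7, 30.4 and 25.0 in stress mice and 30.5, 24.8 and 23.6 in ethanol + stress mice. For both genes the lowest value came from ethanol replicate 2 and the next from ethanol + stress replicate 3, and each treated group overlapped the control group. Clock had the smallest F of the 10 genes (0.0378, limma adjusted p = 0.999), and its differences from control were between -0.03 and 0.01 on the log2 scale.

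The REV-ERB genes link the loops. Nr1d1 (ENSMUSG00000020889.11, chr11:98767932-98775333, minus strand) was at 15.7, 16.0 and 18.8 TPM in control, 20.7, 20.9 and 18.5 in ethanol, 13.2, 16.1 and 18.7 in stress mice and 18, 15.8 and 17.0 in ethanol + stress mice. Ethanol replicates 1 and 2 were the highest of the 12 mice, and ethanol replicate 3 lay just under the highest control value (0.25 ± 0.13 on the log2 scale, limma adjusted p = 0.997). Nr1d1 shares its locus with Thra on the opposite strand, and whether strand was used when reads were assigned is not stated. Nr1d2 (ENSMUSG00000021775.11, chr14:18204054-18239127, minus strand) was at 51.5, 55.0 and 57.0 TPM in control, 54.5, 68.1 and 53.1 in ethanol, 56.8, 51.3 and 58.0 in stress mice and 53.5, 63.0 and 65.7 in ethanol + stress mice. The 3 highest values of Nr1d2 came from ethanol replicate 2 and ethanol + stress replicates 2 and 3, the libraries with the most negative length slopes. Dbp (ENSMUSG00000059824.12, chr7:45705088-45710203, plus strand, overlapped by Sphk2 on the opposite strand) was at 50, 53.7 and 58.8 TPM in control, 59.2, 83.0 and 58.7 in ethanol, 58.5, 42.4 and 61.5 in stress mice and 51.4, 44.5 and 82.0 in ethanol + stress mice. A single mouse in each of the ethanol and ethanol + stress groups stood far above the rest, and the groups overlapped. Its mean was 54.1 ± 4.42 TPM in control and 67.0 ± 13.9 in ethanol mice, a log2 difference of 0.29 ± 0.22 (limma adjusted p = 0.997). Without ethanol replicate 2 it was 0.126.

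**Figure D2:**
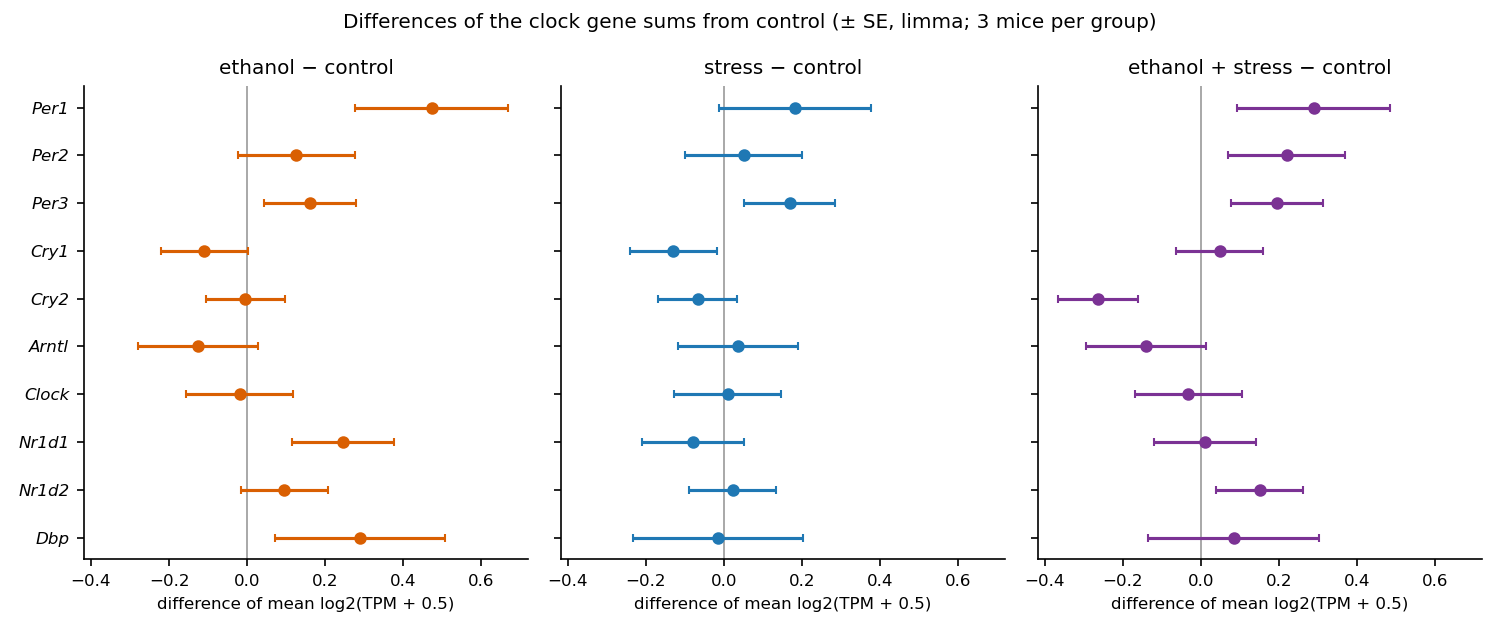
Difference of each treated group from control in mean log2(TPM + 0.5) for the 10 clock genes, with the SE of the limma model (3 mice per group). The highest point is that of Per1 in ethanol mice (0.47) and the lowest that of Cry2 in ethanol + stress mice (-0.26), and none reached p under 0.01.

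By mean level over the 12 mice, which TPM allow to be compared between genes per length, Dbp (58.6 TPM) and Nr1d2 (57.3) stood highest and did not differ beyond their spread between mice (SD 12.7 and 5.52). Cry2 (41.1 ± 4.05), Clock (26.7 ± 2.82), Arntl (20.2 ± 2.58), Nr1d1 (17.5 ± 2.24) and Per1 (15.5 ± 3.02) followed. Cry1 (10.2 ± 0.833), Per3 (7.41 ± 0.600) and Per2 (6.11 ± 0.745) were lowest. Of neighbours in this order, Nr1d2 and Cry2, and Cry1 and Per3, had ranges over the mice that did not overlap, and all others overlapped. Within groups, Dbp varied most between mice, with a pooled SD of 0.31 on the log2 scale, and Per1 came next with 0.26. All other members lay below the median SD over all genes, 0.22, down to 0.09 for Cry1 and Per3, which 93.2% and 94.2% of genes exceeded. From the lowest to the highest mouse, Per1 spanned 2.40-fold and Dbp 1.96-fold, and the other members 1.27-fold to 1.58-fold.

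Genes around the core loop were read in the same way. Of 13 other clock factors and of 9 kinases and ubiquitin ligases that act on clock proteins, all tested, none was called in any of the 3 comparisons with control. At p under 0.05 by limma, 1, 0 and 0 of the 13 factors and 0, 1 and 0 of the 9 enzymes remained in ethanol, stress and ethanol + stress mice. They were Arntl2, a relative of Arntl, with a difference of 0.54 on the log2 scale in ethanol mice, and Fbxl21, a ligase for cryptochromes, with -0.42 in stress mice, named here after their values were seen. Median differences of the factors were 0.105, -0.06 and 0.04, and of the enzymes -0.06, -0.02 and -0.09 on the log2 scale. Npas2, the partner that can stand in for Clock, was at 10.6 ± 1.77 TPM in control, 12 ± 1.19 in ethanol, 9.57 ± 1.79 in stress mice and 11.3 ± 3.40 in ethanol + stress mice. The D-box factors Tef and Hlf, relatives of Dbp, had differences from control between -0.09 and 0.09, and Tef was at 182 ± 4.2 TPM in control. Ciart, a repressor in the loop, Nfil3, which competes with Dbp at D-boxes, and Bhlhe41, which competes at E-boxes, differed from control by -0.13 to 0.11 on the log2 scale, and none had a p under 0.05.

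At the level of isoforms, 2 of the 35 tested isoforms of the clock genes were called in ethanol mice, 2 in stress mice and 2 in ethanol + stress mice, beside 1.26%, 0.914% and 1.21% of all isoforms. They were Dbp-204, Nr1d2-204 and Per3-202, each called in a pair of comparisons and each listed at 0 in all 3 control libraries. An exact 0 can be an estimate that failed, since the assignment program divides read pairs that fit several isoforms. With the control mice at 0 these isoforms passed the filter on low values through treated libraries alone and so had to differ from control. Nothing is read from their calls, and their values are given as a description. The smallest adjusted p of the 6 calls was 0.506 by limma.

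Dbp-204 (ENSMUST00000211513.1, chr7:45705269-45710114, annotated as protein coding) joins exon 1 of Dbp straight to the third exon of the main isoform Dbp-201 and leaves out exon 2 at chr7:45706606-45707016, 411 bases or 137 codons. The join is shown because Dbp-204 has few letters of its own: 29 of its 1126 words of 31 bases are in no other transcript of Dbp. In each line the exon before the join is in lower case and the exon after it in capitals.
Dbp-201 exon 1 to exon 2: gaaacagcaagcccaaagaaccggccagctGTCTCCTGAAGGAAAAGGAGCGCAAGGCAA
Dbp-201 exon 2 to exon 3: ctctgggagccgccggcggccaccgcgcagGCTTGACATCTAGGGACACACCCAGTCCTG
Dbp-204 exon 1 to exon 2: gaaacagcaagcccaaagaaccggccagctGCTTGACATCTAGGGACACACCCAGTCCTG
The first joins chr7:45705762 to 45706606, the next 45707016 to 45708260, and that of Dbp-204 45705762 to 45708260.

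Dbp-204 stood at 0, 0 and 0 TPM in control, 1.90, 16.7 and 4.34 in ethanol, 3.12, 0 and 2.56 in stress mice and 8.08, 3.15 and 5.54 in ethanol + stress mice. All ethanol and ethanol + stress mice were above 0, and 2 of 3 stress mice. Converted to read pairs, the values above 0 were worth 16.1 to 121. Dbp-203, another coding isoform with 4 exons, went the other way in single mice. It was at 4.97, 6.11 and 8.04 TPM in control, 9.09, 3.47e-06 and 7.02 in ethanol, 14.5, 1.68 and 9.21 in stress mice and 2.68e-09, 0 and 10.6 in ethanol + stress mice. The 3 mice with Dbp-203 near 0, ethanol replicate 2 and ethanol + stress replicates 1 and 2, were at 16.7, 8.08 and 3.15 TPM for Dbp-204, and Dbp-203 rests on 28 words of its own. Dbp-201, 70.1% of the summed Dbp, was at 40.5 ± 0.472 TPM in control, 45.2 ± 10.1 in ethanol, 35.6 ± 6.56 in stress mice and 43.1 ± 12.3 in ethanol + stress mice. Dbp-204 made up 11.4% of the Dbp sum in ethanol mice, 3.5% in stress mice and 9.42% with both treatments.

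Per3-202 (ENSMUST00000128283.1, chr4:151024190-151044665, minus strand) is annotated as a retained intron and not as coding. Its last exon runs 220 bases into the intron at chr4:151024190-151024409, and 220 of its 2109 words are in no other Per3 transcript. The boundary is shown as 30 bases of exon in lower case and 60 bases of retained intron in capitals, at chr4:151024350-151024439 on the minus strand.
Per3-202: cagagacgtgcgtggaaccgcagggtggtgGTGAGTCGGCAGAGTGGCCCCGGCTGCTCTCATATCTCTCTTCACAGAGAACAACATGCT
Per3-202 was at 0, 0 and 0 TPM in control, 0.835, 0.00092 and 1.10 in ethanol, 0.874, 0.875 and 1.84 in stress mice and 1.26, 1.01 and 1.09 in ethanol + stress mice. Stress and ethanol + stress mice were all above 0. Ethanol replicate 2, at 0.00092, was the 1 treated mouse near 0. The values above 0.1 TPM were worth 12.8 to 33.3 read pairs. Without Per3-202 the Per3 sum was 6.71 ± 0.234 TPM in control, 6.91 ± 0.755 in ethanol, 6.42 ± 0.754 in stress mice and 6.63 ± 0.299 in ethanol + stress mice, and with protein-coding transcripts alone the differences from control turned to -0.007, -0.095 and -0.044 on the log2 scale. The coding isoform Per3-201 was at 5.49 ± 0.601, 5.46 ± 0.538, 5.10 ± 0.384 and 5.29 ± 0.174 TPM in the 4 groups in the same order.

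Nr1d2-204 (ENSMUST00000225491.1, chr14:18206743-18239011, minus strand) joins exon 1 to a later exon and leaves out 4 exons of the main isoform Nr1d2-201. It was at 0, 0 and 0 TPM in control, 0.539, 0.640 and 0.574 in ethanol, 0.703, 0.643 and 0.829 in stress mice and 0, 0.442 and 0 in ethanol + stress mice. All 3 mice of either treatment alone were above 0, and 1 of 3 with both. The interaction was called in 0.854% of all isoforms, this one among them (limma adjusted p = 0.512), and nothing is read from that call, since the isoform passed the filter through the groups where it was above 0. These values were worth 2.10 to 4.14 read pairs per library, at or near the floor of 3, and 27 of its 707 words are its own, so that the 0 of the other libraries was not distinguishable from them at this depth. Nr1d2-201 made up 88.9% of the Nr1d2 sum.

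**Figure D3:**
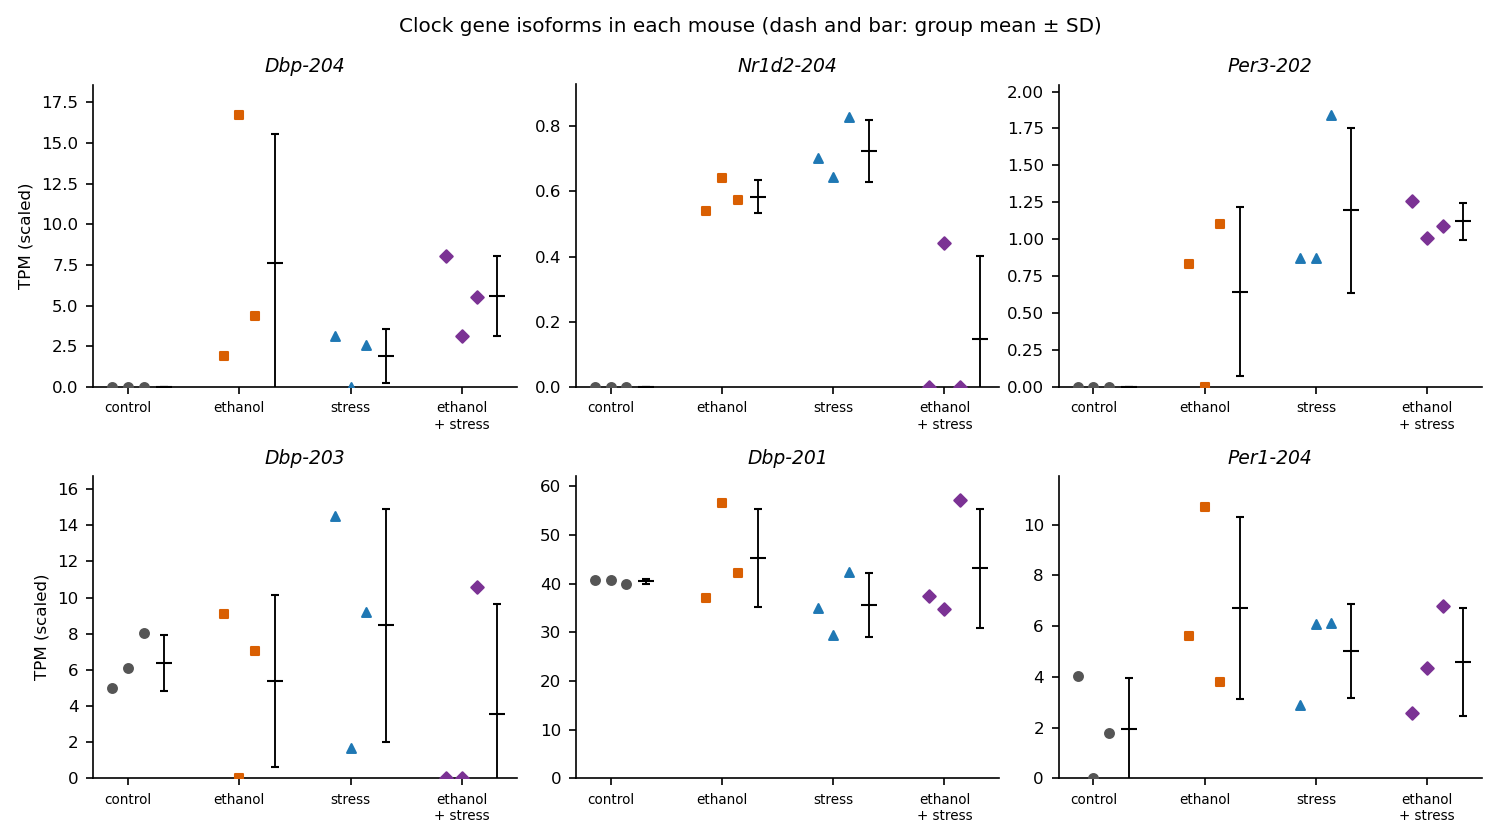
TPM of 6 clock gene isoforms in each of 12 mice, with group mean and SD (dash and bar, n = 3). Dbp-204, Nr1d2-204 and Per3-202 sit at 0 in all control mice, Dbp-203 falls to near 0 in 3 treated mice, Dbp-201 lies between 29.4 and 57.2 TPM in all, and Per1-204 reaches 10.7 TPM in 1 ethanol mouse.

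The difference of summed Per1 in ethanol mice lay in 1 short isoform. Per1-204 (ENSMUST00000132462.7, chr11:69100152-69101048, 496 bases) was at 4.03, 0 and 1.79 TPM in control, 5.61, 10.7 and 3.78 in ethanol, 2.88, 6.09 and 6.11 in stress mice and 2.57, 4.35 and 6.80 in ethanol + stress mice. It made up 14.8% of the Per1 sum in control and 36.8% in ethanol mice, with a difference of 1.94 ± 0.71 that was not called (limma adjusted p = 0.84). These values rest on at most 24.1 read pairs per library and on 6 words of its own. Without Per1-204 the sum was 11.2 ± 1.76 TPM in control and 11.5 ± 1.46 in ethanol mice. The full-length isoform Per1-201 differed by 0.01 ± 0.15 on the log2 scale between ethanol and control mice (limma adjusted p = 0.998).

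Over the 12 mice, the members were compared in 45 pairs by permutation tests with 100000 resamples, two-sided and adjusted over the pairs. The activators ran against Nr1d2: Pearson's r was -0.827 for Clock and Nr1d2 (permutation p = 0.00109, adjusted p = 0.0274) and -0.841 for Arntl and Nr1d2 (permutation p = 0.00122, adjusted p = 0.0274). Spearman's rho was -0.811 and -0.629 (permutation p = 0.00235 and 0.0327, adjusted p = 0.106 and 0.262). Without the 2 mice farthest from the median of the activator, r was -0.740 and -0.548. These 2 pairs were the only ones past 0.05 by r after adjustment, none was by rho, and 9 pairs had an unadjusted p under 0.05. No pair was past 0.05 by r after adjustment without control replicate 3, ethanol replicate 2, stress replicate 2 or ethanol + stress replicate 1 or 3. Without ethanol + stress replicate 2, 7 pairs were. Arntl and Clock had r = 0.764 and rho = 0.636 (permutation p = 0.00387 and 0.0304, adjusted p = 0.058 and 0.262). Dbp and Arntl had r = -0.614 and rho = -0.385 (permutation p = 0.0323 and 0.22, adjusted p = 0.176 and 0.396), and r was 0.158 without the 2 mice farthest from the median of Dbp, so that their relation rests on ethanol replicate 2 and ethanol + stress replicate 3.

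The members of these pairs were also set against the length slope of the libraries. The slope had r = 0.871 with Clock and -0.895 with Nr1d2 (permutation p = 0.00026 and 0.0003, adjusted p = 0.0015 for both over 10 tests), and 0.837 with Arntl (permutation p = 0.00119, adjusted p = 0.00397). Spearman's rho was 0.874, -0.769 and 0.65 (permutation p = 0.0005, 0.00497 and 0.0261, adjusted p = 0.005, 0.0248 and 0.0869), and without the 2 mice farthest from the gene's median r was 0.833, -0.776 and 0.633. With the length trend removed from every library, r for Clock and Nr1d2 was -0.589 against -0.827, and for Arntl and Nr1d2 -0.832 against -0.841. With each library rescaled to a common total, both signs turned, to 0.148 and 0.094. Without the 3 libraries with the largest sums none of the 45 pairs was past 0.05, with r = -0.552 and -0.150. The part of the library property in these relations was not tested further.

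**Figure D4:**
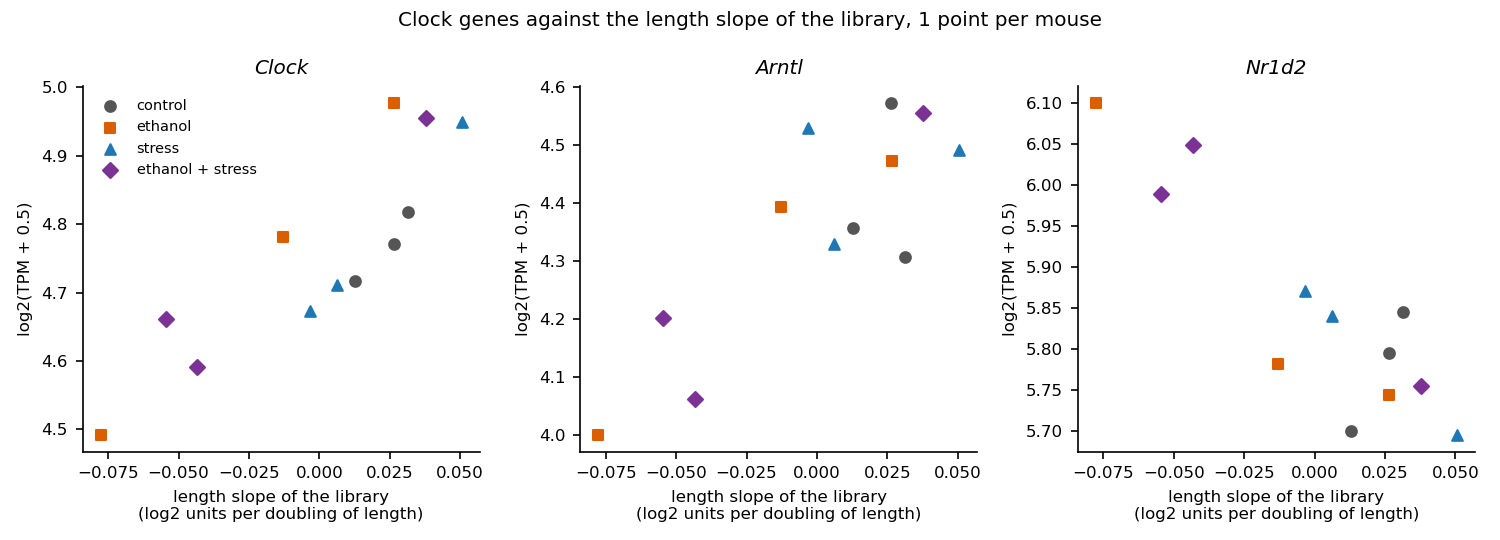
Log2(TPM + 0.5) of Clock, Arntl and Nr1d2 against the length slope of each library, the change of its log2 values per log2 unit of transcript length, 1 point per mouse. Clock and Arntl are higher and Nr1d2 is lower in libraries with a higher slope, with Pearson's r of 0.871, 0.837 and -0.895.

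To describe phase, an index was formed for each mouse as the mean log2 deviation of 10 E-box and D-box driven genes (Dbp, Tef, Hlf, Per1, Per2, Per3, Nr1d1, Nr1d2, Ciart and Bhlhe41) minus that of Arntl, Clock and Npas2. Npas2 ran with Dbp (r = 0.62) and opposite to Arntl (r = -0.663) over these 12 mice, while counted here with the activators. The index was -0.084, -0.134 and -0.025 in control, 0.021, 0.319 and -0.112 in ethanol, -0.071, -0.013 and -0.036 in stress mice and 0.020, -0.010 and 0.126 in ethanol + stress mice. The index is the difference of 2 means of log2 values, so scaling between libraries nearly cancels in it. All ethanol + stress mice lay above the control mice, as did 2 of 3 ethanol mice and stress replicate 2 (-0.013). The remaining ethanol and stress mice lay among the control mice. With the length trend removed, ethanol + stress replicate 2 was at -0.042 and lay below control replicate 3 at -0.009, so that the ethanol + stress and control groups then overlapped. The whole range was 0.453, and 0.260 without ethanol replicate 2. In ethanol replicate 2, the mouse with the highest index, 8 of 10 driven genes were above and 2 of 3 activators below their means over the mice. In ethanol + stress replicate 3, next in order, these counts were 6 and 2. Such counts did not follow the index in every mouse: ethanol replicate 3 had 9 driven genes above and 0 activators below with an index of -0.112, and control replicate 3, ethanol replicate 1 and stress replicate 3 also had 6 driven genes above. No test was run on this index, since its genes overlap the members.

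Dbp and Arntl were also set against genes outside the loop. The genes and the tests were chosen with earlier results of these data known, so the p values are descriptive. Body temperature swings daily, and it sets cold-induced RNA-binding genes such as Cirbp and Rbm3 against heat shock genes such as Hsph1 and Hspa8, which encode chaperones. Over the 12 mice and 18 tests of Dbp and Arntl with 9 such genes, Dbp rose with Cirbp (r = 0.838, permutation p = 0.00037, adjusted p = 0.00234) and Rbm3 (r = 0.847, permutation p = 0.00052, adjusted p = 0.00234). It fell with Hspa8 (r = -0.874, permutation p = 0.00044, adjusted p = 0.00234) and Hsph1 (r = -0.940, permutation p = 1e-05, the smallest that the permutations can give, adjusted p = 0.00018). Spearman's rho was 0.818, 0.685, -0.811 and -0.916 in the same order (permutation p = 0.00196, 0.0169, 0.00209 and 3e-05, adjusted p = 0.0125, 0.0506, 0.0125 and 0.00054).

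Hsph1 was at 163, 143 and 145 TPM in control, 132, 101 and 146 in ethanol, 133, 173 and 114 in stress mice and 159, 158 and 91.0 in ethanol + stress mice. The lowest values came from the 2 mice with the highest Dbp and the highest value from stress replicate 2, the mouse with the lowest Dbp. Without the 2 mice of highest Dbp, which lie farthest from its median, r was 0.697 for Cirbp, 0.602 for Rbm3, -0.689 for Hspa8 and -0.836 for Hsph1 (permutation p = 0.0222, 0.0689, 0.0249 and 0.00212), so that the relation with Rbm3 was then not past 0.05. With the mean of each group subtracted, r was 0.968, 0.944, -0.900 and -0.964, with the length trend removed 0.801, 0.829, -0.850 and -0.908, and with a common total 0.787, 0.739, -0.540 and -0.609. Without the 3 libraries with the largest sums it was 0.606, 0.630, -0.548 and -0.855. Of the other chaperone genes tested, Hspa1b, Hspa5 and Hsp90aa1 also had an adjusted p under 0.05 with Dbp (r = -0.763, -0.752 and -0.713, permutation p = 0.00373, 0.00468 and 0.011, adjusted p = 0.0112, 0.012 and 0.0248), and the relation with Hsp90aa1 rested on the 2 mice, with r = -0.029 without them. Spearman's rho was -0.734, -0.776 and -0.615 (permutation p = 0.00856, 0.00425 and 0.0366, adjusted p = 0.0308, 0.0191 and 0.0843). Hspa1a (r = -0.629, permutation p = 0.0307, adjusted p = 0.0537) and Dnajb1 (r = -0.279, permutation p = 0.367, adjusted p = 0.413) were not past 0.05 after adjustment. Arntl had an adjusted p under 0.05 with 1 of the 9, Hsp90aa1 (r = 0.842, permutation p = 0.00157, adjusted p = 0.00565, rho = 0.615 with a permutation p of 0.0375 and adjusted p of 0.0843), and r was 0.506 without the 2 mice farthest from its median. None of the 9 temperature genes was called between groups by limma in the 3 comparisons with control, and none had an unadjusted p under 0.05.

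**Figure D5:**
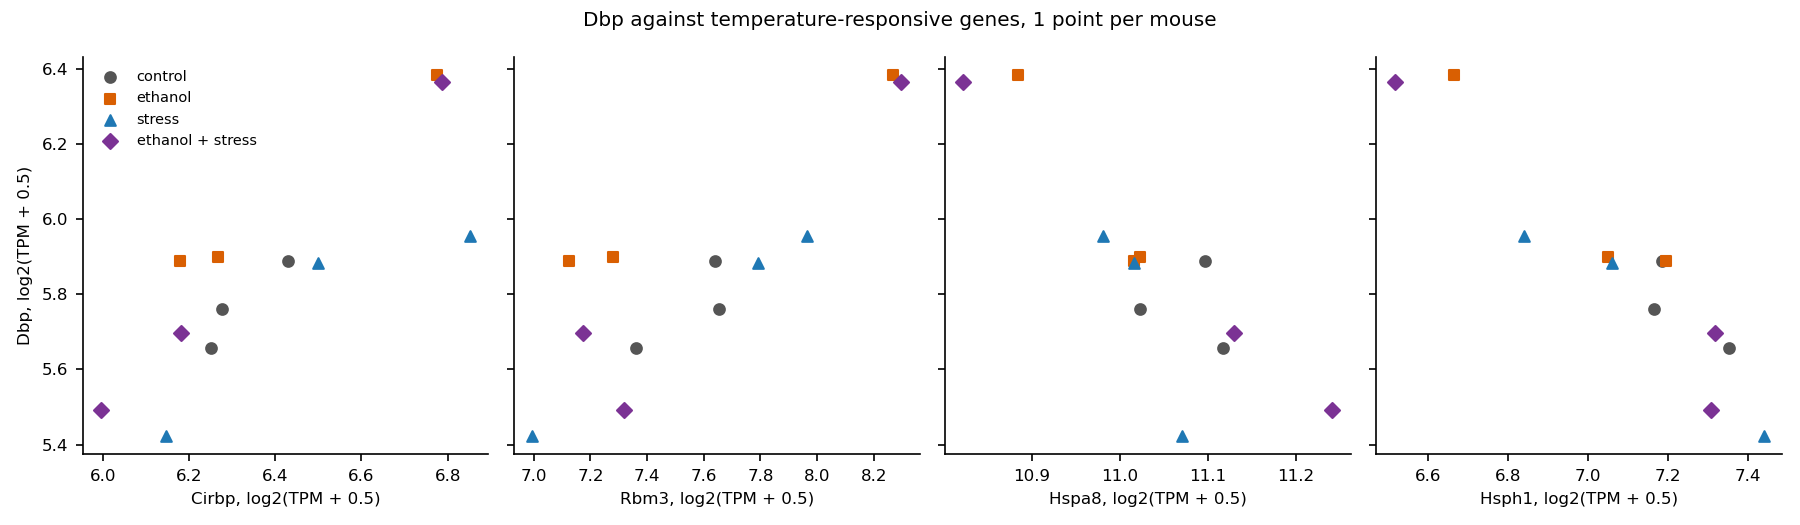
Log2(TPM + 0.5) of Dbp against Cirbp, Rbm3, Hspa8 and Hsph1, 1 point per mouse, marked by group. Dbp is higher where Cirbp and Rbm3 are higher and lower where Hspa8 and Hsph1 are higher (Pearson's r = 0.838, 0.847, -0.874 and -0.940 over 12 mice), and groups are mixed along each trend.

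Among 14397 genes with a mean of at least 1 TPM, the most opposite to Dbp over the 12 mice was Hsph1 (r = -0.940), followed by Xdh (-0.936), Car12 (-0.897), Nabp1 (-0.894) and Cldn1 (-0.879). The most like Dbp were Uba7 (0.893), Spats2 (0.892), Usp53 (0.891), Fam205c (0.886) and Zbtb46 (0.886). Among clock genes Ciart ranked 44 from the top (r = 0.798), Nr1d2 252 (0.685) and Npas2 521 (0.620). The other driven genes of the index ranked lower: Nr1d1 2276 (0.445), Per1 2600 (0.420), Bhlhe41 5779 (0.152) and Per3 6473 (0.092). Hlf (-0.05), Tef (-0.102) and Per2 (-0.447) had an r below 0 with Dbp. The genes most like Arntl were Shroom2 (0.959), Nmt2 (0.947), Tmem115 (0.942), Golph3 (0.941) and Tspyl5 (0.941), and the most opposite Gusb (-0.960), Ranbp17 (-0.950), Glmn (-0.945), Tbcel (-0.942) and Spdya (-0.937). For Arntl, Clock ranked 986 from the top (r = 0.764), Dbp 11737 (-0.614) and Nr1d2 13978 (-0.841), so many genes outside the clock ran closer to Arntl or more against it. These rankings are descriptions over 12 points that share library depth and length slope.

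The marker lists were set against the members in 20 tests over the 12 mice. The lowest adjusted p was 0.0702, reached by Per1 (r = 0.677), Arntl (r = -0.708) and Nr1d2 (r = 0.731) with summed blood markers and by Dbp (r = -0.697) with summed choroid plexus markers, with permutation p values of 0.014, 0.00994, 0.00715 and 0.013. Spearman's rho was 0.685, -0.671, 0.573 and -0.580 (permutation p = 0.017, 0.0198, 0.0548 and 0.0529, adjusted p = 0.183 for each), and without the 2 mice farthest from the gene's median r was 0.255, -0.531, 0.575 and -0.472. In the 3 mice lowest in choroid plexus markers (42.3, 85.6 and 209 TPM), Dbp was at 58.7, 83.0 and 82.0 TPM. Of the lists of genes that respond to arousal, immediate early genes had a median difference of -0.12, -0.53 and -0.64 in ethanol, stress and ethanol + stress mice, with 0 of 10 called by limma and 0, 3 and 3 at p under 0.05. Of 9 genes induced by glucocorticoids, which also drive Per1, 1 was called in ethanol + stress mice, Mt2, and 0 in the others. Summed immediate early genes ran from 232.5 to 320 TPM in control, from 168 to 320.4 in ethanol, from 122 to 239 in stress mice and from 127 to 260.3 in ethanol + stress mice, and the part of arousal or stress hormone in the clock gene values was not tested.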

How the data were processed

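RNA-Seq values of 12 hippocampi, 3 per group, were used. The deposited values are a signal made by the authors: TPM per Ensembl transcript of GRCm38 (mm10), assigned with kallisto from stranded, rRNA-depleted, paired-end libraries and scaled between libraries. Versions of CASAVA, kallisto and sleuth are not given in the sources used here. Of 115270 transcripts, 113580 were matched to GENCODE annotation. Samples were grouped by their labels.

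Transcripts and sums per gene were kept where 6 or more libraries held 0.1 TPM or more. The log2(TPM + 0.5) values then entered limma 3.58.1 (R 4.3.3, lmFit and eBayes with trend, two-sided), in 1 model of the 4 groups without a replicate block. Calls used an unadjusted p under 0.01. The model and the permutation test were tested on simulated data. The length slope is that of a library's transcript deviations from the mean over the libraries on the log2 length of transcripts. For gene sums, the length trend was removed with separate slopes on the mean transcript length of each gene, weighted by value. Read pairs were derived from the step between low values, of which 77.6% to 82% came out whole within 0.1, with a mean fragment length of 198 to 212 bases. They serve as a guide to depth and cover counting error only. Words are the 31-base stretches of a transcript. Joins used Python 3.11.15, numpy 2.4.6 and pandas 2.3.3, and plots matplotlib 3.10.9.

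The members, the lists and the tests were chosen with earlier results of these data known. Named were the members, the main isoform of each where described and each member isoform called against control, 6 further clock factors, any called gene of the clock lists (none was called), and the 5 genes most like and most opposite to Dbp and Arntl. Per1-204, Per1-201, Dbp-203, Per3-201, Cry1-204, Arntl2, Fbxl21 and Mt2 were added after their values were seen. The alternatives changed the pseudocount (0.1 or 1) and the filter (1 TPM or none), and used size factors, a common total, eBayes without trend, the compared groups only, protein-coding transcripts only, a replicate block, group means subtracted and each library left out. Removing the length trend and leaving out the 3 libraries with the largest sums were chosen after seeing the data. Replicate numbers come from the labels, which do not tie mice to litters. By the study's methods each litter was divided between maternal separation and none, so control and stress mice, and ethanol and ethanol + stress mice, may be littermates. The p values measure the spread between these samples.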

Additional observations from a re-analysis of the deposited data

Results flagged for a closer look

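Nr1d2-204 had an interaction of ethanol and maternal separation of -2.1005 on the log2(TPM + 0.5) scale, which passed the unadjusted threshold of 0.01 but not adjustment (limma adjusted p = 0.512) and whose size depends on the pseudocount. It rests on 2.10 to 4.14 read pairs per library where the isoform was above 0, and on 0 in the control mice and in 2 of 3 ethanol + stress mice, which at this depth cannot be told apart, so that no difference of the ethanol effect is shown. Cry1 was singled out because every ethanol mouse lay below the control mean and every ethanol + stress mouse above the stress mean, and because every stress mouse lay below the control mean and every ethanol + stress mouse above the ethanol mean. The interaction of Cry1, the test of both differences, was 0.2887 and was not called (limma adjusted p = 1).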

How the results depend on the processing

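The libraries hold 12050000 to 14960000 estimated read pairs, which leaves the low isoforms near the floor of 3 read pairs, and with 3 mice per group differences of clock gene sums as large as 0.47 on the log2 scale were not called. Gene sums stayed uncalled under every alternative run, except for 1 gene, Cry2, in ethanol + stress mice without replicate 1 of that group (range over single libraries left out 0 to 1). With at least 1 TPM in 6 libraries the isoforms called were 1, 0 and 1 in ethanol, stress and ethanol + stress mice, since fewer isoforms were then tested, and with single libraries left out 2 to 3 in each. The isoforms called had to differ from control through the filter, so these counts say nothing of stability.

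Uncalled differences from control changed sign as follows. With a common total they were -0.081 for Cry1, -0.121 for Nr1d1 and -0.051 for Dbp in ethanol + stress mice and -0.008 for Clock in stress mice. With size factors Nr1d1 in ethanol + stress mice was -0.019. With protein-coding transcripts they were -0.007, -0.095 and -0.044 for Per3 in ethanol, stress and ethanol + stress mice and -0.022 for Nr1d1 in ethanol + stress mice. With the length trend removed they were 0.002 for Cry2 and 0.035 for Clock in ethanol mice, and 0.056 for Clock and -0.005 for Nr1d1 in ethanol + stress mice. Without the 3 libraries with the largest sums they were 0.045 for Cry2, 0.02 for Arntl, 0.11 for Clock and -0.016 for Nr1d2 in ethanol mice, and -0.1 for Cry1, 0.141 for Arntl, 0.186 for Clock, -0.026 for Nr1d2 and -0.07 for Dbp in ethanol + stress mice. With single libraries left out, the ranges that crossed 0 were, in ethanol mice, -0.073 to 0.045 for Cry2, -0.218 to 0.02 for Arntl, -0.133 to 0.11 for Clock and -0.016 to 0.161 for Nr1d2. In stress mice they were -0.044 to 0.329 for Per1, -0.016 to 0.115 for Arntl, -0.076 to 0.062 for Clock, -0.197 to 0.048 for Nr1d1, -0.018 to 0.075 for Nr1d2 and -0.116 to 0.149 for Dbp. In ethanol + stress mice they were -0.001 to 0.123 for Cry1, -0.141 to 0.041 for Clock, -0.037 to 0.091 for Nr1d1 and -0.174 to 0.264 for Dbp. The cause was not tested.

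The number of member pairs past an adjusted p of 0.05, 2 in the report, was 7 with a common total, 0 without the 3 libraries with the largest sums and 0 to 7 with single libraries left out, being 0 without control replicate 3, ethanol replicate 2, stress replicate 2 or ethanol + stress replicate 1 or 3. With a common total, r was 0.094 for Arntl and Nr1d2 and 0.148 for Clock and Nr1d2. The range of the phase index was 0.26 to 0.453 with single libraries left out. The replicate numbers did not pair the mice, since 1 of 18 pairs of equal number had a correlation of deviations over 0.1 and 1 of 12 samples was closest to its own number. With a replicate block, the counts of called gene sums (0) and called isoforms (2 in each comparison with control) were unchanged, and Cry2 in ethanol + stress mice had a difference of -0.264.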
